A study of Ciona robusta with 12 samples.

Results

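A set of 96 transcripts whose share of the embryo's mRNA was clearly lower at the 112-cell than at the 64-cell stage of normal development was followed into embryos of the tunicate Ciona robusta in which the kinase MEK was inhibited. The members were chosen from control embryos alone: a gene needed a mean of at least 4 CPM (its reads scaled to a common total of reads per library) in the DMSO libraries at 64 cells, and its CPM at 112 cells had to be at most 0.6 of that at 64 cells in each of the 3 pairs of DMSO libraries with the same replicate number. Of 15284 gene models, 9052 met the level and 96 of these met both conditions, with KH.C8.396 and KH.C8.890 left out by the rule. The files name genes by KH2012 identifiers only. None of these matched the RefSeq gene table used here, so genes appear by identifier, with no role given, and no sequence is shown.

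Whole dechorionated embryos were raised at 21 degrees Celsius and received either U0126 in DMSO or the carrier DMSO alone, at a 1000-fold dilution, from the 32-cell stage onward. They were collected at 64 or 112 cells. This gives 4 groups of 3 libraries, each from 300 pooled embryos: DMSO at 64 cells, DMSO at 112 cells, U0126 at 64 cells and U0126 at 112 cells. The labelled dose of U0126 is 4 mM, high for this inhibitor, and it could not be checked. The labels give no strain, clutch or collection day, and all controls carry DMSO, so no group is untreated.

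An animal embryo begins with mRNA that the mother stored in the egg. As the embryo's own genome takes over transcription, much of this maternal mRNA is cleared, commonly by shortening of the poly(A) tail followed by decay of the message. In ascidians some maternal mRNAs are held at the posterior pole of the cleaving embryo, while the first zygotic genes are switched on and some are switched off again within a few cell cycles. FGF signals acting through MEK and ERK induce notochord and neural fates in this period, and U0126 blocks that step. A transcript lower at 112 cells could belong to either class, and no egg or earlier stage was among the libraries to separate them. The comparison asked how fast these transcripts were lost when MEK was inhibited.

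The libraries held 10623872 to 15956670 reads over genes. One of them stood apart: in DMSO replicate 3 at 112 cells 234 genes were at least 4-fold under every one of the other 11 libraries, against 1 to 44 genes in any other library, and 1 of the 96 transcripts was among the 234. Because this library helped to choose the members and sets part of the DMSO values, the comparisons between treatments at 112 cells and of the stage change are also given without it. In whole-embryo RNA, fewer cells of a type and less RNA per cell cannot be told apart. CPM is a share of all reads, so a smaller share cannot be told apart from a smaller amount when other transcripts increase.

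The 96 transcripts were of ordinary abundance. Their mean CPM in DMSO embryos at 64 cells ran from 4.06 to 1181 with a median of 39.5, and the 9052 genes above the level minimum had a median of 55.7. Identifiers that begin with KH.C, the models placed on chromosomes, made up 78 of the 96 (81.2%) and 6465 of the 9052 (71.4%), a description with no test. Together the members took up 7475, 8037 and 7299 CPM in DMSO replicates 1, 2 and 3 at 64 cells. At 112 cells they took up 3481, 3715 and 2290 CPM. In U0126 embryos the summed level was 7164, 8531 and 7080 CPM at 64 cells and 3278, 3911 and 3142 CPM at 112 cells. Replicate 2 was highest in all 4 groups, and the treatments had similar totals at 64 cells. At 112 cells the totals were similar in replicates 1 and 2. In replicate 3 the total was 2290 CPM in DMSO and 3142 CPM in U0126 embryos. The rule held the DMSO totals at 112 cells low, so no comparison of treatments is drawn from them. The most abundant member alone averaged 1181 CPM, so the sums do not weigh the 96 equally. The share of the summed CPM left at 112 cells was 46.6%, 46.2% and 31.4% in the DMSO pairs and 45.8%, 45.8% and 44.4% in the U0126 pairs, so the one pair that stands apart is DMSO replicate 3.

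For single transcripts the fraction remaining, CPM at 112 cells divided by CPM at 64 cells, was looked at next. In DMSO embryos, where the rule holds it to 0.6 or less, its median over the 96 members was 0.511, 0.495 and 0.368 in replicates 1, 2 and 3. In U0126 embryos, which the rule did not use, it was 0.497, 0.511 and 0.491. The U0126 medians were near those of DMSO replicates 1 and 2, and DMSO replicate 3 was lower. Since the rule held the DMSO medians low, no comparison of the rate of loss is drawn from them. The median gene of the 9052 kept 0.936, 0.945 and 1.06 of its CPM in the DMSO pairs and 0.872, 0.978 and 0.908 in the U0126 pairs. Of the 96 members, 94 were lower at 112 cells in all 3 U0126 pairs, where 39.9% of the 9052 genes were. The 3 U0126 values at 112 cells lay under all 3 at 64 cells, without overlap, in 85 members and in 15.3% of the 9052 genes.

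**Figure D1:**
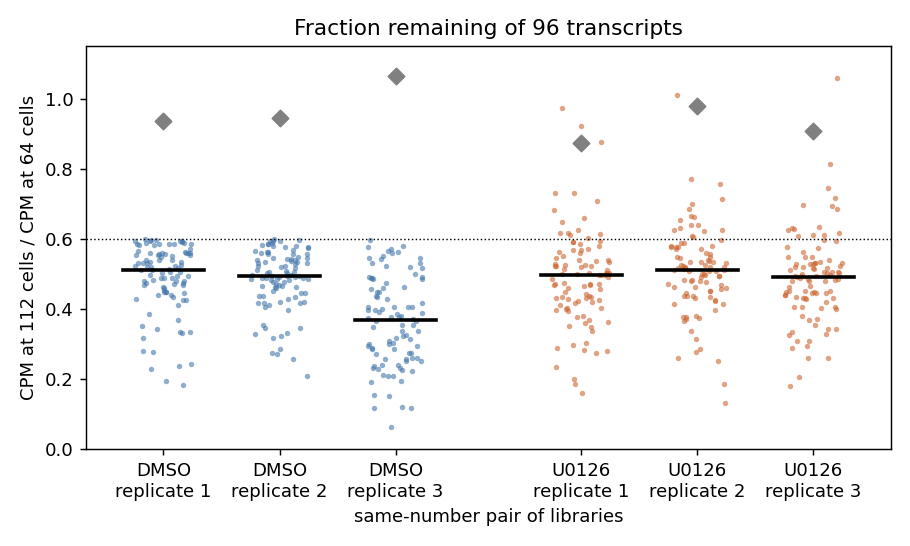
Fraction remaining (CPM at 112 cells divided by CPM at 64 cells, y axis) of the 96 transcripts in each same-number pair of libraries (x axis; DMSO blue, U0126 orange). Points are transcripts, bars their median, grey diamonds the median of the 9052 genes of at least 4 CPM, and the dotted line the 0.6 of the rule, which bounds the DMSO points by choice. The U0126 medians of 0.491 to 0.511 lie near those of DMSO replicates 1 and 2, and DMSO replicate 3 is lower at 0.368. The rule held the DMSO medians low, so the rate of loss is not compared by them.

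The loss in U0126 embryos was then tested, with the 12 libraries in one limma fit across 11650 genes. The fit took its spread from all 12, so the DMSO libraries that chose the members enter these p-values. All 96 members passed the filter on low values, and 95 of them had at least 10 normalized counts in all 3 U0126 libraries at 64 cells. In U0126 embryos 48 of the 96 fell between the stages at a limma adjusted p under 0.05, and none rose. Over all genes tested 1.89% were called lower (220 genes) and 4.9% higher, so that members made up 21.8% of the genes called lower. All 96 estimates were negative, as were 50.8% of all estimates. The median log2 change was -0.93 (quartiles -1.12 and -0.79), which leaves 0.525 of the starting level, and over all genes it was -0.01. The members' estimates ran from -2.45 to -0.30 on the log2 scale. A fall of at least 2-fold was estimated for 35 members and of at least 4-fold for 2.

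The replicate numbers of the labels pair the libraries, and with the number as a block 79 of the 96 fell, among them all 48, against 6.82% of all genes called lower and 8.32% higher. edgeR called 46 lower, 45 of them shared with limma, and none higher, against 1.76% and 4.75% of all genes. In either tool no member had a positive estimate. The unblocked count was 76 without DMSO replicate 3 at 112 cells, where 4.31% of all genes were called lower. It was 29 without U0126 replicate 1 or replicate 3 at 112 cells and 30 without U0126 replicate 2 or replicate 3 at 64 cells. Calls over all genes, both directions together, dropped too, from 791 to 501, 503, 570 and 566 in these 4 settings. The 48 members that missed the threshold in the fit without the block had a median log2 change of -0.82, against -1.06 for the called ones. They also had a larger median SE in that fit, 0.34 against 0.19. Their uncalled status does not show that they were kept. The U0126 libraries carry the same replicate numbers as the DMSO libraries that chose the members, so they are separate libraries but may share a source with them.

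Ranked by the change in U0126 embryos, members filled 12 of the 20 lowest places and 25 of the 50 lowest among the genes of at least 4 CPM, without the 2 genes left out by the rule. The 2 with the lowest estimates among the called members were KH.C12.491 and KH.L20.26. KH.C12.491 was at 176, 235 and 222 normalized counts in U0126 replicates 1, 2 and 3 at 64 cells, and its values at 112 cells were 35.8, 30.3 and 48.5. The stages did not overlap, and the log2 change was -2.45 (SE 0.23, limma adjusted p = 3.91e-05). In DMSO embryos it was at 239, 269 and 245 normalized counts at 64 cells and at 48.3, 71.6 and 55.3 at 112 cells. KH.L20.26 was at 1674, 2530 and 1644 normalized counts in U0126 embryos at 64 cells and at 370, 469 and 317 at 112 cells. Its stages did not overlap either (log2 change -2.33, SE 0.48, limma adjusted p = 0.0111). The adjusted p was 0.0548 without U0126 replicate 3 at 112 cells, 0.0537 without U0126 replicate 2 at 64 cells and 0.100 with the block and without replicate 2, within a range of 4.72e-11 to 0.100 over its alternatives. Its fraction remaining was close in the 3 U0126 pairs, at 0.201, 0.187 and 0.180. In the DMSO pairs it was 0.236, 0.209 and 0.0627, so DMSO replicate 3 alone was far lower.

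The 2 most abundant members also fell in treated embryos. KH.C3.773, the highest at 1181 CPM in DMSO embryos at 64 cells, averaged 15524 ± 401 normalized counts in that group and 4087 ± 735 at 112 cells (SD, n = 3 each). In U0126 embryos it averaged 16292 ± 2097 and 4616 ± 406, a log2 change of -1.81 (SE 0.15, limma adjusted p = 1.61e-05). Its fraction remaining was 0.280, 0.287 and 0.231 in the DMSO pairs and 0.274, 0.276 and 0.260 in the U0126 pairs. KH.C11.95, the next in abundance, went from 5607 ± 626 to 2471 ± 196 normalized counts in U0126 embryos (log2 change -1.18, SE 0.14, limma adjusted p = 0.000226). In DMSO embryos it was at 5244 ± 586 and 2281 ± 293. Across the 96 members the mean CPM in DMSO embryos at 64 cells was hardly related to the change in U0126 embryos. Pearson's r, with log2 CPM, was -0.09 and Spearman's rho was -0.003. Both are descriptions across genes, which share the libraries.

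At the other end stood members with little estimated change in U0126 embryos. KH.C7.334 was at 102, 269 and 105 normalized counts in U0126 embryos at 64 cells and at 110, 154 and 91.3 at 112 cells. The stages overlapped, and replicate 2 was high at both (log2 change -0.30, SE 0.46, limma adjusted p = 0.892). Within the U0126 pairs its fraction remaining was 0.973, 0.576 and 0.814, and with the block the SE was 0.21 (limma adjusted p = 0.423). In DMSO embryos it was at 136, 198 and 94.5 normalized counts at 64 cells and at 73.6, 101.3 and 37.2 at 112 cells. KH.C8.117 was at 69.6, 183 and 60.8 normalized counts in U0126 embryos at 64 cells and at 70.6, 80.4 and 68.7 at 112 cells, again with overlap (log2 change -0.33, SE 0.54, limma adjusted p = 0.911). Its fraction remaining in the U0126 pairs was 0.922, 0.445 and 1.06, and with the block the SE was 0.39 (limma adjusted p = 0.673). Without U0126 replicate 2 at 64 cells alone the unblocked log2 changes of KH.C7.334 and KH.C8.117 became 0.15 and 0.16. With the block and without replicate 2 at either stage they were -0.05 and 0.10. Of all members, 84 had an estimated fraction of 0.6 or less in U0126 embryos, 7 lay above 0.6 and up to 0.7, and 5 above 0.7. The shares of all genes in these ranges were not counted.

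**Figure D2:**
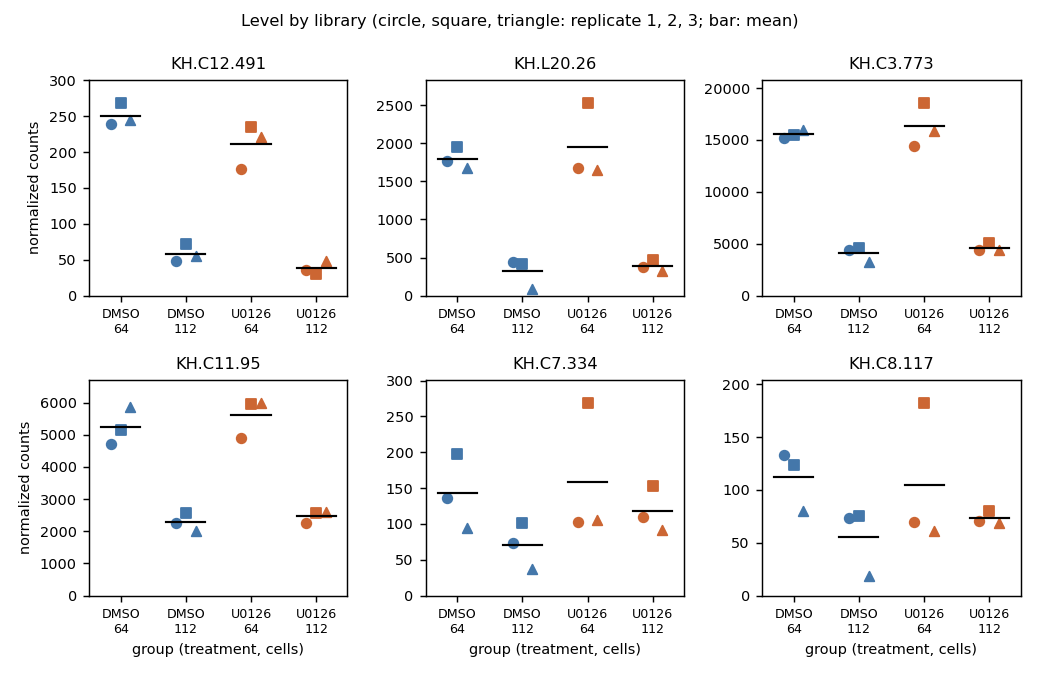
Normalized counts (y axis, from 0) of 6 of the 96 transcripts in every library, by group (x axis; DMSO blue, U0126 orange). Symbols mark the replicate number and bars the mean of 3 libraries. KH.C12.491, KH.L20.26, KH.C3.773 and KH.C11.95 are lower at 112 cells in both treatments without overlap, whereas the U0126 values of KH.C7.334 and KH.C8.117 overlap between the stages.

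The 0.6 of the rule falls inside a continuum. The 2 members nearest to it had a highest DMSO fraction of 0.598 and 0.599, and the 2 genes just outside had 0.6004 and 0.604. By level, the lowest member averaged 4.06 CPM, and the gene nearest below the minimum averaged 3.59 CPM. The 29 members at 0.5 or less in every DMSO pair had a median log2 change of -1.13 in U0126 embryos (range -2.45 to -0.90), and the other 67 one of -0.85 (range -1.47 to -0.30). Of the 29, 22 fell in U0126 embryos at a limma adjusted p under 0.05, and of the 67, 26 did. Over all genes tested 1.89% were called lower there. Across the 96 members the log2 changes in the 2 treatments had a Pearson's r of 0.63 and a Spearman's rho of 0.37, a description across genes. The DMSO range is cut short by the rule, and libraries with the same number may share a source.

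Applied to the U0126 libraries, the same rule found 142 genes, which is 1.57% of the 9019 genes of at least 4 CPM there. It shared 60 genes with the members, or 62.5% of the 96 and 42.3% of the 142. The 36 members that it missed were mostly near the limit: in 26 of them the highest U0126 fraction was at most 0.7, with a median of 0.632 over the 36 and a highest value of 1.06. The 82 genes found in U0126 embryos alone had a median highest DMSO fraction of 0.768 and a highest value of 5.77, and 26 of them were at most 0.7.

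**Figure D3:**
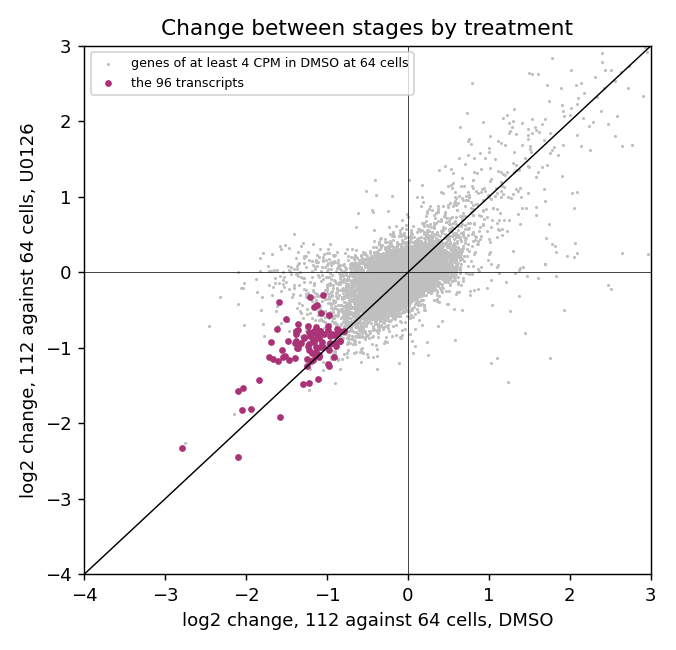
log2 change between 64 and 112 cells in DMSO (x axis) and U0126 (y axis) embryos from the limma fit, for the 96 transcripts (purple) and the 9052 genes of at least 4 CPM (grey); 36 grey genes lie outside the plotted range of -4 to 3. The diagonal marks equal changes. All 96 points lie below 0 on both axes, on the x axis by choice, with medians of -1.17 in DMSO and -0.93 in U0126 embryos.

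The rate of loss cannot be compared directly between the treatments over these members, since they were chosen for low DMSO values at 112 cells. As a description, 74 of the 96 passed the limma threshold as lower in DMSO embryos (2.21% of all genes) and 95 with the replicate block (7.57%), from which nothing is read. The median log2 change was -1.17 in DMSO and -0.93 in U0126 embryos. The difference, U0126 minus DMSO, had a median of 0.26 and was positive in 82 of 96, and in 49.4% of all genes. Without DMSO replicate 3 at 112 cells, an alternative chosen after its low fractions had been seen, the median difference was 0.00061 and 48 of 96 were positive, and with the block it was 0.02 and 56 were. The median log2 change in DMSO embryos was then -0.91, with 67 called lower (2.37% of all genes), or -0.95 and 95 with the block (13.6%). With CPM in place of median-of-ratios scaling, and all 12 libraries, the median difference was 0.17, where the median over all genes was -0.10. No member was called for this difference, where limma called 0.146% of all genes lower and 0.00858% higher (0.258% and 0.00858% with the block), and nothing is read from that. At an unadjusted p under 0.05 limma had 2 members, and 5 with the block, all with a positive difference. The share of all genes at that threshold was not counted, and nothing is read from these counts either. edgeR called 0 members, with 0.112% of all genes lower and 0.00858% higher, and the SE of the difference had a median of 0.37 on the log2 scale.

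The highest difference was that of a low transcript. KH.L96.79 had a difference of 1.198 (SE 0.999), with 189, 167 and 107 normalized counts in DMSO embryos at 64 cells and 119, 83.9 and 11.3 at 112 cells. In U0126 embryos it was at 151, 201 and 88.3 and then at 145, 119 and 67.6. DMSO replicate 3 at 112 cells was the lowest of these 12 values. KH.C12.491 had the most negative difference, -0.35 (SE 0.33). With the replicate block the SEs were 0.63 and 0.27. Without DMSO replicate 3 at 112 cells the difference of KH.L96.79 was 0.19 (SE 0.55), or 0.49 (SE 0.24) with the block, and that of KH.C12.491 was -0.37 (SE 0.34), or -0.44 (SE 0.26) with the block. KH.C8.359, picked out after its values were seen, had a difference of 0.69 (SE 0.29, or 0.21 with the block). Its fraction remaining was 0.681, 0.686 and 0.745 in the U0126 pairs. In the DMSO pairs, where the rule bounds it, it was 0.559, 0.445 and 0.397. The difference was negative in 14 members.

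For a comparison in libraries that took no part in the choice, members were chosen from the DMSO pairs of 2 replicate numbers and measured in the pairs of the number left out. With replicate 1 left out, 157 genes were chosen, and their median fraction remaining was 0.572 in DMSO and 0.562 in U0126 embryos. With replicate 2 left out, 128 genes were chosen, with 0.532 and 0.533. With replicate 3 left out, 157 genes were chosen, with 0.501 and 0.487. The fraction was higher in U0126 than in DMSO embryos for 45.9%, 51.6% and 46.5% of the genes. The difference of the medians, U0126 minus DMSO, was thus -0.0099, 0.0013 and -0.0133, with a mean of -0.0073 ± 0.0076 (SD, n = 3 replicate numbers), while the fraction itself varied by 0.0358 in DMSO and 0.0377 in U0126 embryos (SD over the numbers). The 3 gene sets overlap, and no test was made over the genes.

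On the joint median-of-ratios scale the first 2 of these differences were -0.0094 and -0.0193, but the third was 0.0812, with medians of 0.429 in DMSO and 0.511 in U0126 embryos, and the mean became 0.0175. The choice of genes moved with the scale too, to 153, 130 and 113 genes. With the genes chosen on CPM kept and only the measurement on the joint scale, an alternative added after these values were seen, the differences were 0.0208, -0.0220 and 0.0794, with a mean of 0.0261. The sign of the difference thus depended on the scale, and the largest value on the joint scale was that of replicate 3, whose DMSO library at 112 cells stands apart. When genes were instead chosen in U0126 embryos and measured in the number left out, the difference was -0.0585, 0.0132 and -0.0850.

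**Figure D4:**
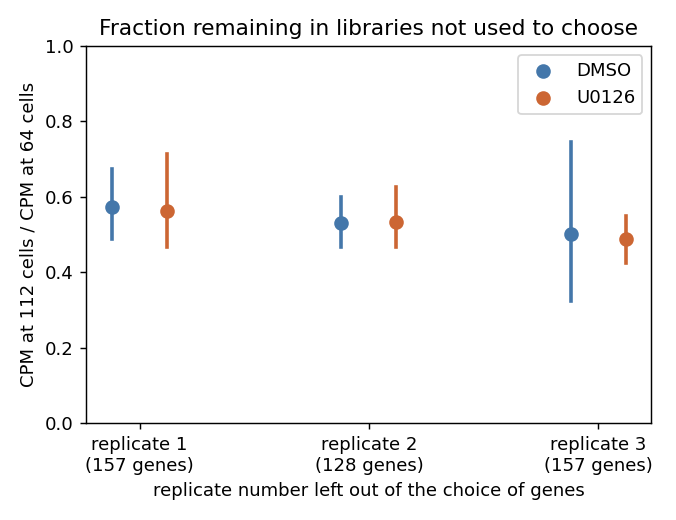
Median fraction remaining (y axis; dots) with quartiles (bars) in the DMSO (blue) and U0126 (orange) libraries of the replicate number that was left out when the genes were chosen (x axis, with the number of genes). The medians, U0126 minus DMSO, differ by -0.0133 to 0.0013, and the DMSO quartiles are widest for replicate 3.

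Last, the levels were compared between treatments at each stage, again as a description, since DMSO libraries enter the rule. At 64 cells the members' median log2 difference, U0126 minus DMSO, was 0.04, and over all genes it was 0.02. No member was called in either direction, where limma called 0.0343% of all genes lower and 0.00858% higher, and edgeR called 0 members too (0.0429% and 0.00858% of all genes). KH.C12.105 was at 932, 775 and 824 normalized counts in DMSO embryos at 64 cells and at 435, 673 and 538 in U0126 embryos, without overlap (log2 difference -0.64, SE 0.19). KH.C12.493 was at 835, 614 and 779 in DMSO and at 468, 627 and 520 in U0126 embryos, with overlap (log2 difference -0.46, SE 0.17). In the limma fit without a block these were the 2 members with an unadjusted p under 0.05 there. With the block KH.L87.45 joined them in the other direction, at 121, 96.6 and 134 normalized counts in DMSO and 164, 147 and 146 in U0126 embryos, without overlap (log2 difference 0.39, SE 0.13 with the block). All of these were picked out after their values were seen, and the share of all genes at the unadjusted threshold was not counted. KH.C12.105 and KH.C12.493 still fell in U0126 embryos, to 186 ± 12.7 and 150 ± 9.57 normalized counts (SD, n = 3 each; log2 changes -1.53 and -1.83, limma adjusted p = 0.000306 and 3.32e-05).

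At 112 cells the members' median log2 difference was 0.29, with 77 of 96 positive. Over all genes it was 0.00, with 50.0% positive. Limma called none of the 96 there, where it called 0.773% of all genes lower and 0.223% higher, and edgeR called 0 (0.773% and 0.258% of all genes). In limma 7 were higher and 1 lower at an unadjusted p under 0.05, and 17 and 1 with the replicate block. The share of all genes at that threshold was not counted, so nothing is read from these counts. With the replicate block limma called 3 higher, where 0.678% of all genes were higher and 1.49% lower. Without DMSO replicate 3 at 112 cells the median difference was 0.01, with 50 of 96 positive and none called, and with the block it was 0.04, with 56 positive and 4 called higher (1.59% of all genes). The rule favours low DMSO values at 112 cells, and DMSO replicate 3 was the lowest of the 3 DMSO libraries at this stage for 81 of the 96 members. How often this library was lowest over all genes was not counted. The part of the rule in the positive median was not tested.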

How the data were processed

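Per the file headers, the authors deposited one table per stage with read counts per gene divided by a library factor (a signal, never negative) and regularized log values, which were not used. The submitters' processing notes name the aligner TopHat2 (2.9.8b) and the package DESeq (1.8.1). Which counter, strand setting, filter or build was chosen is not given in the sources used here, so overlapping genes, antisense genes and near-identical copies are uncertain. In each library 100% of deposited values were whole multiples of the smallest (tolerance 0.01), so whole reads were recovered. A count of 0 allows up to 3 reads, or 0.188 to 0.282 CPM, counting error only.

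Reads of all 12 libraries were rescaled by median-of-ratios factors ("normalized counts") and fitted as log2(value + 1) with limma 3.58.1 (trend; R 4.3.3), which understates changes of low genes. Genes needed 10 normalized counts in at least 3 libraries, and p-values were adjusted by Benjamini-Hochberg over all genes tested. edgeR 4.0.16 and DESeq2 1.42.0 on recovered reads were alternatives. The steps were tested on simulated data. Stage coincides with the deposited table. The series calls the replicates biological, but the labels name no separate clutches, so p-values measure the spread between these samples. No 2 replicates agreed within sampling noise.

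Libraries with the same replicate number deviated together (Pearson's r of deviations from group means 0.380 to 0.833 in 18 pairs; -0.527 to -0.034 in 36 pairs with different numbers), so the numbers were taken to pair the libraries, from the data. Members and lists were chosen with earlier results of these data known. Genes to name were those with the lowest (10) and highest (6) change in U0126 embryos, the highest level (4), the extreme differences between treatments (3 each way) and the neighbours of the threshold; at most 2 identifiers per direction and comparison are printed, since none has a name. The gene lists could not be matched to identifiers.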

Additional observations from a re-analysis of the deposited data

How the results depend on the processing

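The 48 members called lower in U0126 embryos became 46 with edgeR, 68 with DESeq2, 64 with the 6 U0126 libraries alone and 44 to 58 under the other pseudocounts, filter and scaling. Calls over all genes, both directions together, were 758, 1056, 826 and 779 to 822 in these settings, against 791 in the main fit. The replicate block gave 79 members, and 1764 of all genes in place of 791. The range was 29 to 76 members and 501 to 1184 genes when single libraries were left out, and 34 to 92 members and 522 to 2613 genes with the block and without one replicate number. The members' median log2 change in U0126 embryos was -1.01 to -0.84 without single libraries and -1.002 under CPM scaling, which shifts the median of all genes to -0.08. The 96 members became 29 at a fall to 0.5 (22 called, median -1.13), 274 at 0.7 (89, -0.76), 28 over all 9 pairs (23, -1.12), 157 without pair 1 (49, -0.79), 128 without pair 2 (54, -0.90), 157 without pair 3 (79, -0.92) and 83 on the joint scale (50, -0.99). The calls in these lists are from the unblocked limma fit, in which 1.89% of all genes were called lower. The held-out difference in the fraction remaining changed from -0.0073 to 0.0175 on the joint scale (0.0261 with the genes chosen on CPM), to -0.0317 at 0.7 and to -0.0434 when chosen in U0126 embryos; the cause was not tested. Of 483 values for 21 genes 445 kept direction and side of the threshold. The 4 log2 changes that reversed were KH.C7.334 (0.15) and KH.C8.117 (0.16) without U0126 replicate 2 at 64 cells, KH.C8.117 with the block and without replicate 2 (0.10), and KH.C7.614 without U0126 replicate 1 at 64 cells (0.094). Without single libraries these genes ranged from -0.54 to 0.15, from -0.62 to 0.16 and from -1.49 to 0.094. The lowest member value was 3 reads, so changes of the lowest transcripts are imprecise.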
